A study of Mus musculus with 14 samples.

Results

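H3K27ac peak lists of regulatory T cells (Tregs) whose Slc31a1 gene was deleted were compared with those of control Tregs. The members are the 3 control and 3 knockout H3K27ac lists, 6 of the 14 samples of the series, of which 10 have a peak list. Only chromosomes 1 to 19 were used. All peaks of the 6 lists that overlapped by at least 1 bp were merged into 36809 regions, and the presence of a peak and the number of bases covered by peaks were compared between the genotypes in each region. The study mapped H3K27ac and H3K27me3 in FACS-sorted mouse Tregs by CUT&Tag, in which an antibody brings a transposase to chromatin that carries the mark. Control cells came from mice given in the protocol as Foxp3YFPcre;wt, and knockout cells from Foxp3YFP-Slc31a1△;wt mice. The sample titles call both chimeras and number the H3K27ac samples as chimeras 2 to 4 of each genotype, here replicates 1 to 3. Both genotypes carry the Foxp3 allele with YFP and Cre, so that deletion of Slc31a1 is driven from Foxp3, the gene of the Treg lineage factor. Each sample held 140000 cells. Age, sex and the wild-type partner cells of the chimeras are not described in the labels. The labels do not say that the samples came from separate animals, so the spread behind each p-value is that between samples and may in part be technical.

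H3K27ac is acetylation of lysine 27 of histone H3, set by the acetyltransferases p300 and CBP and removed by histone deacetylases. It marks active promoters and enhancers, and long stretches of it surround genes that define a cell type. Slc31a1 encodes CTR1, the high-affinity copper importer of the plasma membrane, and copper serves as a cofactor of enzymes that include cytochrome c oxidase. Tregs depend on Foxp3 and on mitochondrial respiration to restrain other lymphocytes. A peak list gives where enrichment passed the caller's threshold and how far it extended, so covered bases are a length of marked chromatin and not an amount of mark. Regions are named by their mm39 coordinates. No annotation of that build was used, so regions are not assigned to genes and neither H3K27ac at Slc31a1 nor markers of other cell types could be read.

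Between 27410 and 31337 peaks were listed per control and between 20900 and 27651 per knockout. Control 1 stood apart with 3624 regions found in its list alone, against 745 to 1707 in each other list. Knockout 3 had the shortest list and was the only library without a peak in 1791 regions. Depth, read back from the lists, was 8.49 to 12.4 fragments per kb in controls and 9.10 to 11 in knockouts. The library used as background by the peak caller was estimated to be deeper behind every knockout list than behind any control list. It was 20.66, 20.61 and 20.62 fragments per kb for knockouts 1 to 3 and 16.1, 13.11 and 13.12 for controls 1 to 3. This estimate assumes the Poisson model of MACS2, whose settings are not given, and rests on a common step that 58.5% to 62.8% of the background values read back from each list met. Since peaks were called against it, this background library and the genotype cannot be told apart in what follows. Each knockout library also had a larger median peak width, at 899, 1064 and 936 bp, than each control library, at 811, 846 and 820 bp. The exact permutation p for this difference of 141 bp in the means was 0.1 (two-sided), the smallest that 3 against 3 samples can give. With lists of equal length the difference turned to -33.7 bp (exact permutation p = 1).

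Most acetylated chromatin lay in regions found in every library. Of the 36809 regions, 12813 (34.8%) had a peak in all 6 lists, with a median width of 2379 bp. These shared regions held 80.8%, 85.9% and 85.0% of the covered bases of controls 1 to 3 and 86.1%, 86.6% and 93.1% of those of knockouts 1 to 3. At the other end, 6528 regions had a peak in a single control and 3893 in a single knockout, with median widths of 351 and 372 bp. The many regions seen once were thus short, and those seen in all 6 lists were long.

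Regions that separated the genotypes without exception were few. All 3 controls and no knockout had a peak in 977 regions (2.65%), and all 3 knockouts and no control in 299 (0.812%). With the lists cut to equal length, the counts were 478 and 449. Control-only regions were shorter and lower than shared ones: their median width was 901 bp and their mean summit over the 3 controls had a median of 10.4 times the genome-wide mean coverage of the library. For knockout-only regions these were 874 bp and 9.0 times, and for shared regions the median summit was 34.7 times in controls and 32.6 times in knockouts. The lowest summit listed in any library lay between 4.27 and 5.27 times the mean. Of the control-only regions 35.0% lay within 5 kb of a shared region, and of the knockout-only regions 51.5%. The same shares were 37.2% for regions seen in 1 control alone and 49.6% for regions seen in 1 knockout alone.

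**Figure D1:**
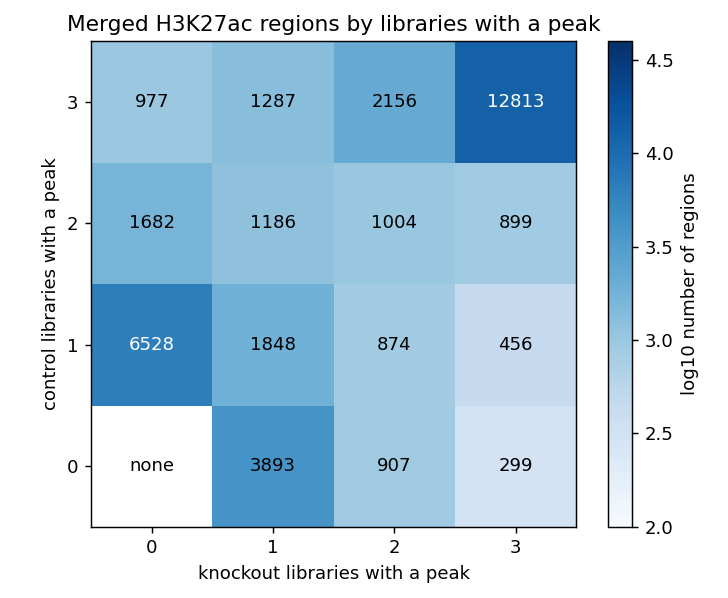
Number of merged H3K27ac regions by how many of the 3 control libraries (vertical axis) and of the 3 knockout libraries (horizontal axis) had a peak, with colour on a log10 scale. The 12813 regions of the top right cell were shared by all 6 libraries, while 977 lay at the control-only and 299 at the knockout-only corner.

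Among control-only regions the strongest by mean −log10 p was chr9:61726337-61729211. It had 2126, 2675 and 1979 covered bases in controls 1 to 3 and summits of 25.7, 23.0 and 22.3 times the mean. The next in order was chr2:69934325-69936672, with 1756, 1507 and 1894 bases in the controls. In both, no knockout library had a covered base, and the 3 control summits stood well above the lowest summit listed in any knockout. That lowest summit is taken over a whole list. Peaks are called over local background, so it is not the limit of calling at these places. The other 3 named by this rule, chr12:104201439-104204669, chr8:129254344-129256669 and chr12:99617214-99619427, had 2632 ± 522, 1621 ± 399 and 1895 ± 146 bases in the controls (SD, n = 3 each).

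The strongest knockout-only region, chr4:63006307-63008944, had 2388, 2483 and 2469 covered bases in knockouts 1 to 3, with summits of 40.0, 30.9 and 30.4 times the mean. On the same chromosome, chr4:62501113-62503520 had 2408, 2396 and 1906 bases and summits of 34.5, 34.1 and 35.8 times. These summits are as high as the median shared region, while no control had a peak in either place. Lower summits were found at chr19:38363482-38365625, with 11, 23.0 and 21.2 times the mean in knockouts 1 to 3, at chr10:93578602-93579702, with 16.1, 15.1 and 12.5, and at chr5:44292031-44293364, with 8.62, 17.7 and 14.2.

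Covered bases fell in more regions than they rose. Of 21951 regions with a covered base in at least 3 of the 6 libraries, limma called 413 lower (1.88%) and 109 higher (0.497%) in the knockout libraries with an adjusted p below 0.05, and the median log2 change over all 21951 was -0.06. Changes are knockout minus control on the scale log2(bases + 100), after centring each library on the regions covered in all 6. The calls sit close to the threshold, with adjusted p between 0.0453 and 0.0498 for the lower and between 0.0453 and 0.0499 for the higher regions. In all, the lower regions held a mean of 773 kb under control and 191 kb under knockout peaks, and the higher ones 66.3 and 213 kb. Both sets were spread over all 19 chromosomes.

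These calls depended on the settings and on single libraries. No region was called in either direction with a pseudocount of 10 bases (limma, 2184 lower and 1202 higher at an unadjusted p under 0.05), without control 1 (1969 and 1402), control 2 (1800 and 1097) or control 3 (1923 and 1242), or without knockout 2 (2218 and 849), while 33 and 0 were called without knockout 3 (1005 higher unadjusted) and 1046 and 233 without knockout 1. Quantile normalization gave 416 lower and 187 higher, and lists of equal length 480 and 302. With replicate number as a block, limma called 0 lower and 0 higher (2581 and 1528 at an unadjusted p under 0.05).

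**Figure D2:**
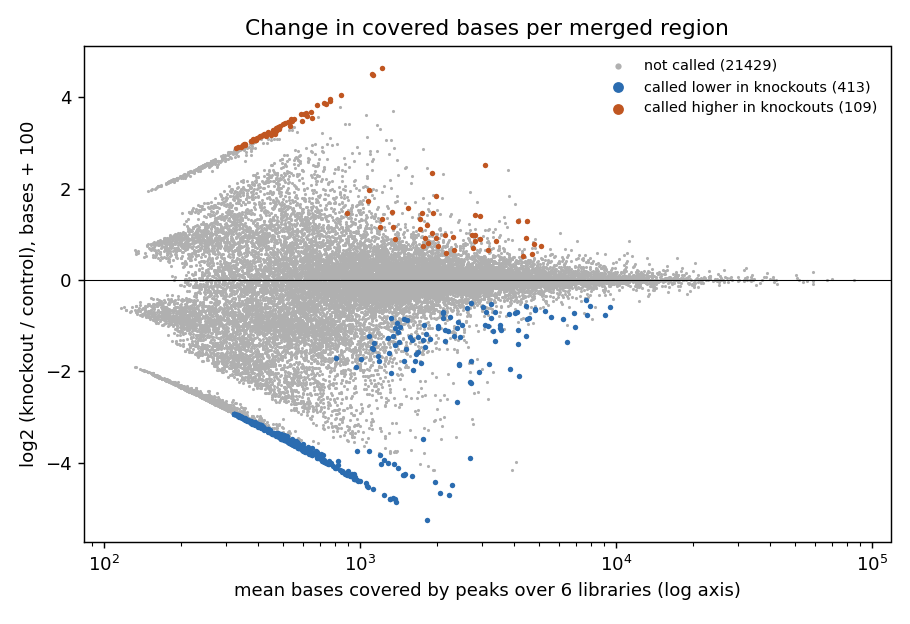
Change in covered bases between genotypes, as log2 of bases + 100 in knockouts over controls, against the mean bases covered over the 6 libraries (log axis), for 21951 regions. The 413 regions called lower and 109 called higher are coloured, and the 2 straight outer bands are regions with no peak in any library of 1 genotype.

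Most called regions had no peak at all in the other genotype, and passed the filter on covered libraries only through the genotype in which they had peaks. Their calls compare values with a group of zeros and are given as a description. Among the 413 lower regions, 298 had no covered base in any knockout, 16 had a peak in 1 knockout, 2 in 2 and 97 in all 3. Of the 109 higher regions 66 were empty in every control and 43 were covered in all 6 libraries. The control summits of the 298 regions had a median of 13.1 times the mean and ranged from 6.95 to 37.5 times, above the 4.27 to 4.70 times at which the knockout lists began. Those starts are the lowest summits of whole lists and not the limits of calling at these regions. The knockout summits of the 66 regions had a median of 11 times and ranged from 5.97 to 39.5 times. Where a genotype had no covered base, the size of the log2 change is set by the pseudocount and is not a bound.

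The region with the largest fall, chr7:25479185-25483587, had 3420, 3157 and 4368 covered bases in controls 1 to 3 and 0 in each knockout. Its summits in the controls reached 29.5, 27.3 and 29.4 times the mean coverage, close to the median of shared regions. The log2 change of -5.25 is set by the pseudocount and ran from -8.54 to -2.23 over the alternatives. A second region of chromosome 7, chr7:105788015-105791294, had 2361, 3270 and 2666 bases in the controls and 0 in the knockouts, with lower summits of 8.33, 13.9 and 16.6 times. At chr2:33060962-33064645 the controls had 3684, 2787 and 1747 bases and the knockouts 0. In each of these 3 regions the genotypes did not overlap, as the rule for naming them requires.

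A pair of the 10 largest falls kept a short peak in knockout 1. On chr2:150411407-150415858 controls 1 to 3 had 4205, 4362 and 4425 bases and knockout 1 had 413, with a summit of 12.5 times the mean against 28.1, 29.2 and 27 in the controls. On chr18:80717863-80722469 the controls had 4487, 3917 and 3617 bases and knockout 1 had 346. Knockouts 2 and 3 had 0 in both regions, and the limma adjusted p was 0.0457 for each. The other 5 of the 10, chr18:80686795-80690429, chr12:104201439-104204669, chr9:15439867-15443871, chr11:107987465-107990415 and chr9:61726337-61729211, had means between 2260 and 2709 bases in the controls and 0 in every knockout, with log2 changes from -4.79 to -4.58.

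Of the 10 largest rises, each had 0 covered bases in every control. After the pair on chromosome 4 described among the knockout-only regions, at log2 changes of 4.64 and 4.50, came chr10:93543161-93546053. It had 1899, 2869 and 1972 bases in knockouts 1 to 3, with summits of 11.4, 13.8 and 12.5 times the mean. At chr6:49135238-49137614 the knockouts had 1003, 2313 and 1735 bases, and at chr6:29840619-29842665 they had 1104, 1702 and 1772. Knockout 1 was the lowest of the 3 in each of these regions. The summits at chr16:44176704-44178481 were 43.9, 29.9 and 16.2 times the mean in knockouts 1 to 3, over 1778, 1591 and 982 bases. The last in order was another region of chromosome 4, chr4:62513642-62515605, with 1076, 1964 and 838 bases. The others, chr19:38363482-38365625, chr1:183800681-183802878 and chr14:54912598-54914321, had means of 1529, 1484 and 1365 bases.

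Each of these 20 regions lost its call under at least 6 of up to 15 alternatives. All kept their direction under every alternative run, which their choice for no overlap between genotypes largely fixed in advance. Over the alternatives the limma adjusted p of the falls ran from 0.00102 to 0.144 and that of the rises from 0.0036 to 0.147. Most of these fits compare values with a group of zeros in regions chosen for no overlap. Their p-values are therefore a description.

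**Figure D3:**
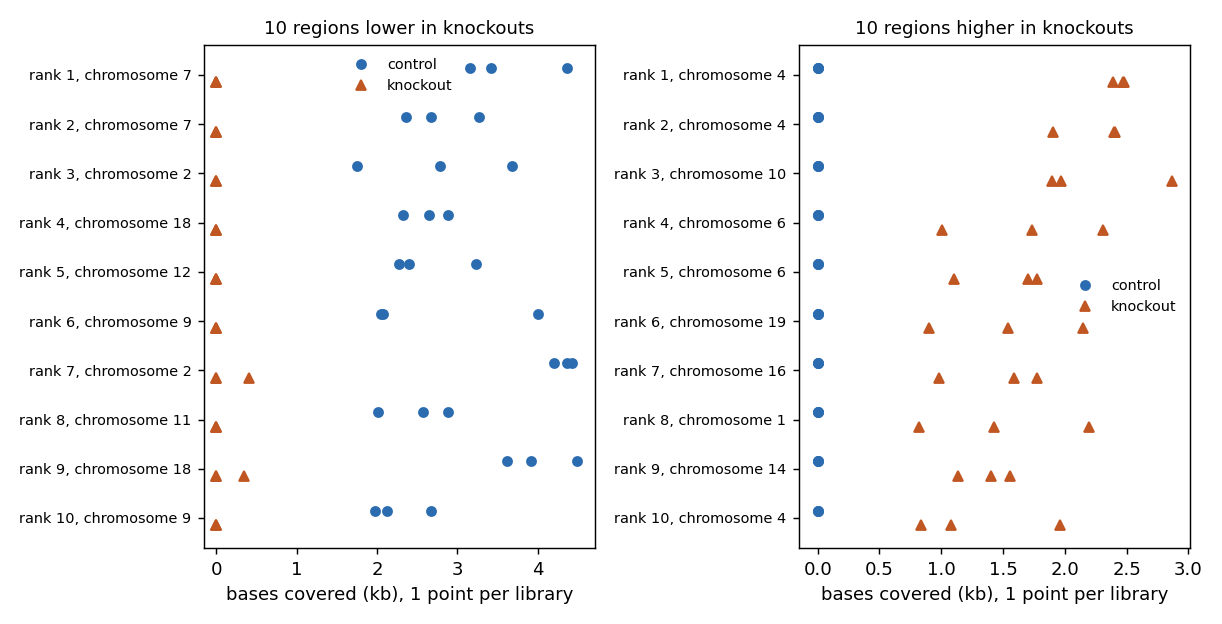
Bases covered by peaks (kb) in each library for the 10 regions with the largest falls (left) and the 10 with the largest rises (right), with control libraries as circles and knockout libraries as triangles, where points at 0 lie on top of each other. On the left every knockout is at 0 except knockout 1 in the regions of rank 7 and 9, and on the right every control is at 0.

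Regions with a peak in all 6 libraries also differed in width. In a fit of log2 covered bases over the 12813 shared regions, with no pseudocount, limma called 69 narrower (0.539%) and 27 wider (0.211%) in knockouts, against a median log2 change of 0.01 over all of them. The narrower regions had a median of 3836 covered bases in controls and 1204 in knockouts, and the wider ones 1387 and 3292. Of these 96 regions, 93 were also called in the fit of all 21951 regions. No shared region was called without control 2 (limma, 566 narrower and 704 wider at an unadjusted p under 0.05) or control 3 (655 and 810), while 18 and 31 were called without control 1, 138 and 65 without knockout 1, 1 and 0 without knockout 2 (537 wider unadjusted) and 12 and 0 without knockout 3 (627 wider unadjusted). Without centring the counts were 6 and 1, and with replicate number as a block 149 and 122.

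The narrowing was mostly at the ends of the regions. In the 69 narrower regions, the distance from the first to the last covered base had a median of 4151 bp in controls and 1468 bp in knockouts. The loss of this extent made up 83.3% of the summed loss of covered bases, and gaps between peaks the rest. Both ends lay inside those of every control in all 3 knockouts in 39 of the 69 regions, and 1 end did in 28. The mean number of peaks per library was 1.59 in each genotype, with more peaks in the knockouts in 23 of the 69 regions, fewer in 26 and as many in 20. Of the 27 wider regions, 11 had both ends and 16 had 1 end outside those of every control, and extent again made up 83.3% of the change. Over the 12717 shared regions that were not called, both knockout ends lay inside those of every control in 169 and 1 end in 1361, and both lay outside in 219 and 1 in 1794. Their extent had a median of 1826 bp in controls and 1828 bp in knockouts, and made up 36.1% of their summed change in bases. The called regions were chosen by their covered bases, so their ends are a description.

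Summit height followed width in most of these regions. It was read back from the fold and p of the highest peak as whole fragments over the mean coverage of the same library, a measure added after the values were seen. Summit height was lower in the knockouts in 68 of the 69 narrower regions, with a median log2 change of -0.73, and higher in 25 of the 27 wider ones, with a median of 0.59. The median summit in the narrower regions was 28.9 times the mean in controls and 15.4 times in knockouts, and in the wider regions 15.3 and 22.0 times. Width and summit come from the same peaks and are not independent measures. Fitted on its own over 12812 shared regions, summit height was called lower in 39 and higher in 7 by limma, and 13 of the 69 and 3 of the 27 were among these calls.

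Over all shared regions, the counts without overlap between genotypes leaned towards more covered bases and, counted separately, towards lower summits in the knockouts. The values were not centred between libraries, and the counts do not show that the same regions changed in both measures. All 3 knockouts covered fewer bases than all 3 controls in 930 regions (7.26%) and more in 1523 (11.9%). Their summits were all below those of the controls in 1480 regions (11.6%) and all above in 566 (4.42%). The median summit over shared regions was 36.8, 31.1 and 35.1 times the mean in controls 1 to 3 and 38.8, 32.2 and 25.4 times in knockouts 1 to 3, so that knockout 3 was lowest and knockout 1 highest. These library medians did not separate the genotypes (exact permutation p = 0.7, two-sided).

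**Figure D4:**
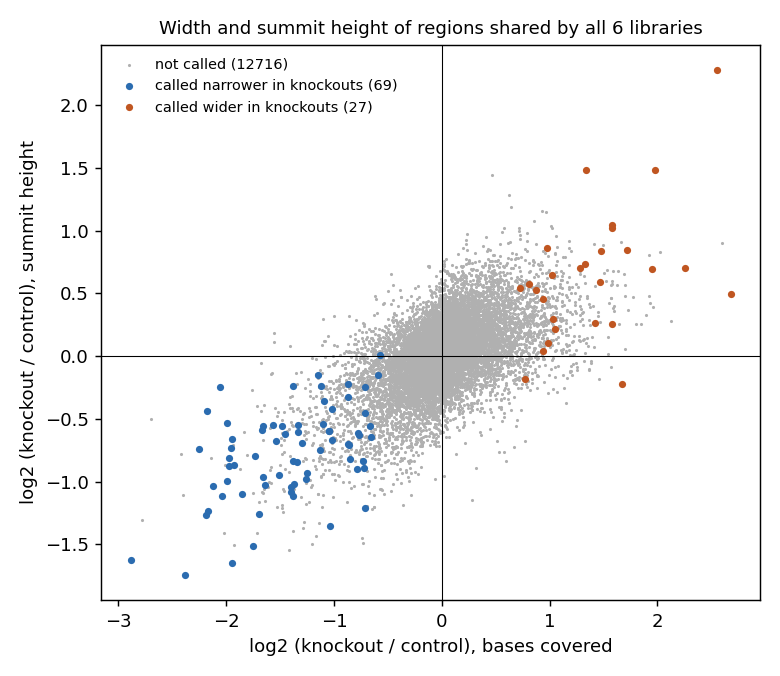
Log2 change in summit height against log2 change in covered bases, knockouts over controls, 1 point per region shared by all 6 libraries. The 69 regions called narrower lie at the left, 68 of them below 0 in summit height, and the 27 called wider lie at the right, 25 of them above 0.

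The region narrowed most, chr12:100846448-100850917, had 3918, 4439 and 4172 covered bases in controls 1 to 3, while knockouts 1 to 3 had 711, 384 and 719. Its summits fell from 63.6, 62.8 and 58.8 times the mean in the controls to 25.9, 17.7 and 13.7 in the knockouts. The log2 change was -2.88 in bases (SE 0.32, limma adjusted p = 0.0236) and -1.62 in summit height (limma adjusted p = 0.00282). Its neighbour chr12:100851591-100858737 had 6526, 6934 and 6733 bases in the controls, while the knockouts had 2242, 1784 and 870, a log2 change of -2.19 (limma adjusted p = 0.0236). At this neighbour knockouts 1 to 3 had 4, 2 and 2 peaks where controls 1 to 3 had 1, 1 and 2.

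On chromosome 16, chr16:58520309-58525214 was covered over 4869, 4477 and 3982 bases in the controls but only 1562, 778 and 548 in the knockouts, and its summit log2 change of -1.74 was also called (limma adjusted p = 0.0144). In chr15:55765025-55767569, where controls had 2164 ± 171 bases and knockouts 480 ± 139, and chr9:56014433-56016276, with 1574 ± 196 and 360 ± 84.0 (SD, n = 3 each), the width change was called and the summit change was not (limma adjusted p = 0.253 and 0.680). Over the alternatives, the limma adjusted p of the bases or summits of these 5 narrower regions ran from 0.00282 to 0.680.

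Of the wider regions, chr4:62504025-62508240 differed most clearly in height. Controls 1 to 3 had 391, 673 and 594 covered bases, and knockouts 1 to 3 had 3095, 4076 and 2705. The log2 change in bases was 2.55 (SE 0.25, limma adjusted p = 0.0236). Its summits were 11.5, 10.1 and 9.0 times the mean in the controls and 48.6, 48.3 and 40.0 times in the knockouts, a log2 change of 2.28 (limma adjusted p = 0.000707). It follows closely on the knockout-only region chr4:62501113-62503520. At chr10:93523008-93526536 the controls had 967, 575 and 877 bases and the knockouts 2818, 3267 and 3456, and summits were 19.8, 13.9 and 20.4 times against 58.0, 45.6 and 36.6 (log2 1.49, limma adjusted p = 0.00611). Summits stayed low at chr13:111609444-111616356, which had the largest width change of the 5, from 887 ± 468 to 5265 ± 1402 bases (SD, n = 3 each, log2 2.68, limma adjusted p = 0.0385), with summits of 7.29 to 10.9 times in the controls and 9.01 to 13.1 times in the knockouts. At chr2:150162506-150164686 and chr10:111050190-111052112 the log2 changes in bases were 2.25 and 1.95 and those in summit height, 0.70 and 0.69, were not called. The limma adjusted p of the bases or summits of these 5 wider regions ran from 0.000707 to 0.575 over the alternatives, with summits at both ends of this range.

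Some called regions of like direction lay near each other. Joined where less than 50 kb apart, the 413 lower regions formed 317 loci and the 109 higher ones 96. Most loci, 260 of the lower and 90 of the higher ones, held a single called region. At least 3 called regions lay in 24 lower and 3 higher loci, and the longest chains held 6. Tested regions themselves lie near each other, and like numbers of them were not joined for comparison. Whether called regions lie closer than tested regions in general was therefore not tested. The loci described next were singled out for the number of their called regions after the values were seen. On chromosome 14, from 45231349 to 45338974, 6 of 15 tested regions were called lower. Controls 1 to 3 had 40084, 36102 and 33134 covered bases over this stretch and knockouts 1 to 3 had 16130, 13642 and 9190. Near the centre of this locus each control had a peak, knockouts 1 and 2 kept shorter ones and knockout 3 had none.

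A locus on chromosome 18 from 80686795 to 80730410 also had 6 called regions, of 9 tested, with means of 24906 ± 5522 covered bases for the controls and 5870 ± 1088 for the knockouts (SD, n = 3 each). Another with 6, of 8 tested, lay on chromosome 8 from 129245313 to 129274564. Here the controls had 13894, 10698 and 9503 bases, and the knockouts 1404, 725 and 0, so that almost no peak was listed in the knockouts. On chromosome 12 from 17429806 to 17522289, with 4 of 12 tested regions called, controls 1 to 3 had 21204, 13958 and 14125 bases and knockouts 1 to 3 had 2605, 0 and 291. Control 1 was the highest of all libraries at each of these 4 loci. That was not so at every locus: on chromosome 7 from 105576144 to 105622908, where 4 of 10 regions were called lower, controls 1 to 3 had 9245, 14911 and 14704 bases and knockouts 1 to 3 had 4413, 5609 and 4109.

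The largest of the higher loci lay on chromosome 10 from 93475966 to 93579702, where 6 of 16 tested regions were called. Controls 1 to 3 had 12781, 12035 and 12055 covered bases and knockouts 1 to 3 had 32660, 40777 and 33373. Most peaks of the controls were longer in the knockouts here, and the knockouts had further peaks between and beyond them. A stretch of chromosome 4 from 62501113 to 62538243, with 4 of 5 tested regions called, had 2773 ± 564 bases in controls and 12904 ± 2254 in knockouts. The remaining higher locus, on chromosome 16 from 76096355 to 76132667, had 9723 ± 716 and 16948 ± 2114 (SD, n = 3 each) and 3 of 7 regions called.

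**Figure D5:**
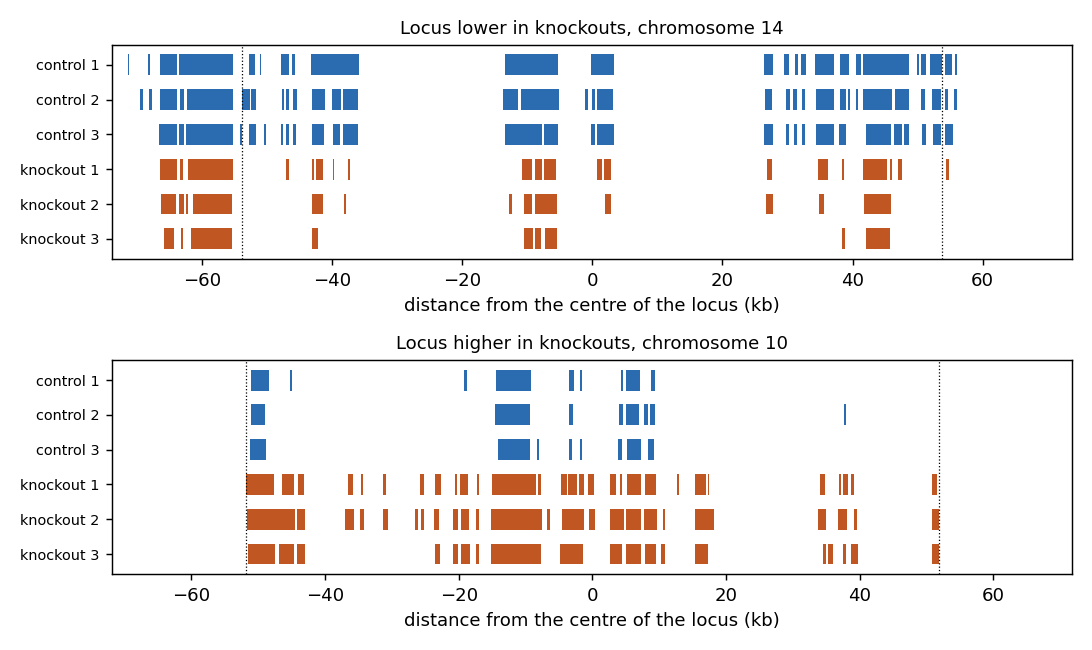
Peaks of each library, drawn to scale as distance in kb from the centre of the locus, for a lower locus of chromosome 14 (top) and a higher locus of chromosome 10 (bottom), with dotted lines at the ends of each locus. At the top the control peaks add up to 33134 to 40084 bases inside the lines and the knockout peaks to 9190 to 16130, and at the bottom to 12035 to 12781 and 32660 to 40777.

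Uncalled regions next to called ones leaned the same way. Within 50 kb of a region called lower lay 1401 tested regions that were not called themselves, of which 81.4% had a log2 change below 0, with a median of -0.54. Within 50 kb of a region called higher lay 538, of which 69.5% were above 0, with a median of 0.20. Over all 21429 uncalled regions 55.5% were below 0 and the median was -0.05. Neighbours come from the same libraries as the called regions, and no test was made of these shares.

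The called share varied with width and chromosome. In the fit of all regions, 0.952% of the regions under 1 kb were called lower, 2.53% of those from 1 to 2 kb, 2.04% from 2 to 5 kb, 1.82% from 5 to 10 kb and 0.668% of the 599 regions of 10 kb and over. Of these longest regions, the stretches of mark that can span gene clusters or enhancer groups, 4 were called narrower and 0 wider in the fit of shared regions, and their median log2 change was 0.03. By chromosome, the lower share was largest on chromosome 18, at 23 of 587 regions (3.92%), and smallest on chromosome 19, at 2 of 662 (0.302%). The higher share was largest on chromosome 16, at 7 of 793 (0.883%), and smallest on chromosome 18, at 1 of 587 (0.170%). Several of these counts are small, and differences between chromosomes were not tested.

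H3K27me3, the mark set by Polycomb repressive complexes, overlapped 2.18% of the regions called lower and 1.83% of those called higher in at least 1 of its 4 lists. Over all 36809 regions the share was 0.242%, and over the shared regions 0.0546%. It was 1.33% over the control-only and 0.669% over the knockout-only regions, with which the called regions largely overlap in kind. Of the 413 lower regions, 9 overlapped a peak of H3K27me3 knockout 2, 3 one of knockout 1, 1 one of control 2 and 0 one of control 1. Of the 109 higher regions, 2 overlapped control 2 and 0 any other H3K27me3 list. Over all 36809 regions, 80 overlapped knockout 2, 14 knockout 1, 26 control 2 and 5 control 1, so knockout 2 also held most overlaps there. The H3K27me3 samples are chimeras 1 and 2 of each genotype, numbered here as H3K27me3 replicates 1 and 2. Only chimera 2, which is replicate 1 for H3K27ac, has lists of both marks, so a replicate number names different chimeras for the 2 marks. These lists differ in length, with 7507, 43253, 36053 and 56634 peaks in control 1, control 2, knockout 1 and knockout 2, and acetylated regions seldom overlap H3K27me3 within a genotype, so the direction of these overlaps is partly set by the choice of regions. An example is chr16:90127139-90128549, with 1266, 743 and 983 H3K27ac bases in controls 1 to 3 and 0 in the knockouts, where H3K27me3 covered 0 bases in both controls and 1211 and 1348 in knockouts 1 and 2. Similarly, chr4:141678954-141680624 had 1152, 1328 and 1008 H3K27ac bases in the controls and 0 in the knockouts, and 1080 and 1258 H3K27me3 bases in knockouts 1 and 2. Both were picked after their values were seen.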

How the data were processed

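The 6 peak lists were used as the authors deposited them, in narrowPeak layout. Per the submitters' processing notes the build was mm39 and the tools included MACS2 (version not given), Bowtie2 2.2.4, HOMER 4.11, ChIPseeker 1.30.3 and deepTools 3.5.1. Settings and the background library are not given in the sources used here. The authors deposited the enrichment of each peak over its local background as a ratio (fold) and its p-value as −log10, from just above 5. Lists were made per sample.

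Bases per merged region were tested with limma 3.58.1 in R 4.3.3 (trended, robust variances, Benjamini-Hochberg adjustment, threshold 0.05), and checked on simulated data. The simulation did not model a genotype without peaks, so the check does not cover calls of that kind. Library values were compared by exact permutation tests. From fold and p of each peak, whole summit fragments were recovered in 99.99% to 100% of peaks (relative tolerance 2e-05). Depth is fragments per kb so derived. Intervals are not given, since fragments are not independent molecules.

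The text names up to 10 regions per direction with the largest called change and no overlap between genotypes, 5 control-only and 5 knockout-only regions by mean −log10 p, and 5 shared regions per direction. Members and lists were chosen with earlier results of these data known. Replicate numbers were not used to pair the samples in the main fits. Alternatives were pseudocounts, centring, filter, merging distance, stricter or equal lists, a block and leaving out each library. Tests of genes and gene lists were not run, since no annotation of mm39 was used. The planned check of the cell type against marker genes was not run for the same reason. IgG samples were not analysed here.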

Additional observations from a re-analysis of the deposited data

How the results depend on the processing

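Differences are knockouts minus controls, and what caused the changes was not tested, apart from the smaller data that shorter lists and fewer libraries give. The peak number difference kept its direction in all alternatives. Covered length differed by -0.544 Mb, turned to 2.16 Mb with lists of equal length and ran from -2.93 to 1.74 Mb without 1 library, the last without knockout 3. The median width difference of 141 bp turned to -33.7 bp with equal lists. Control-only and knockout-only regions numbered 638 and 184 with a −log10 p of at least 10, 478 and 449 with equal lists, and between 1053 and 1957 and between 384 and 705 without 1 library, which eases the rule. Regions called lower and higher numbered 0 and 0 with a pseudocount of 10 bases (2184 and 1202 at an unadjusted p under 0.05 by limma), 627 and 185 with 1000 bases, 726 and 262 without centring, 416 and 187 with quantile normalization, 199 and 78 without the filter and 480 and 302 with equal lists. Without 1 library they ran from 0 to 1046 and from 0 to 233. Shared regions called narrower and wider numbered 6 and 1 without centring, 76 and 46 with quantile normalization, 35 and 16 with a −log10 p of at least 10, 97 and 42 with peaks merged up to 500 bp apart, and from 0 to 138 and from 0 to 65 without 1 library. With summit height in place of bases, chosen after seeing the data, they numbered 39 and 7. Same-numbered samples correlated at 0.241, 0.064 and 0.015 in their deviations. The value for replicate 1 was the highest of all pairs, while control 2 correlated best with knockout 3, at 0.146. These few values do not settle whether the numbers pair the samples, and the main fits did not pair them. With the replicate block, limma called 0 lower and 0 higher regions (2581 and 1528 unadjusted), and 149 narrower and 122 wider shared regions. In that block the differences in peak number, covered length and median width had exact sign-flip p of 0.25, 0.75 and 0.25. No named region turned direction, which the choice of regions without overlap between genotypes largely fixed in advance. Gene-based alternatives were not run. Summits and widths are limited by 8.49 to 12.4 fragments per kb, and the lowest summit listed was 11 to 13 fragments. A region without a peak may hold mark that did not pass the caller's threshold over the local background there.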
